A study of Anas platyrhynchos x Cairina moschata with 137 samples.

Results

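The last days before hatching were examined by comparing livers of mule duck embryos at embryonic day 28 (E28) with livers at embryonic day 24 (E24). The mule duck, a hybrid of common and Muscovy ducks, is raised for fatty liver. Animals were chosen by the stage in their labels, which gave 20 animals at E28 and 19 animals at E24, 39 animals in all, while the other 5 stages of the study, from earlier embryos to hatchlings, held 98. Each animal gave 1 liver and belonged to 1 stage, so the stages are separate groups of embryos. The embryos of both stages were untreated, came from mothers of a single genotype, H85, and were incubated under the same conditions until E27, when all eggs were moved to a hatcher with slightly cooler and more humid air. The E28 embryos had therefore been in the hatcher and the E24 embryos had not, and age and hatcher cannot be told apart in this comparison. No source used here gives the sex of the embryos.

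Quantitative PCR on microfluidic circuits gave the mRNA levels. Amplified product fluoresces, the cycle at which it passes a set brightness is the threshold cycle (Ct), and a later Ct means less template. The deposited tables hold the Ct of 55 numbered rows and the relative expression of 50 of them, the target genes. Relative expression is a linear ratio of a target to 5 references, the rows numbered 51 to 55, and a value of 1 stands for the mean Ct over the animals of all stages in both. It follows 1 gene between stages and does not rank genes against each other. The comparison was made on log2 relative expression, every difference is E28 minus E24, and a row is said to have risen or fallen where the limma test gave a p-value under 0.05 after Benjamini-Hochberg adjustment over the 50 rows.

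In the bird embryo the yolk is the main store of energy, and its lipids are taken up and oxidised, while the little glucose available is made and stored largely by the liver. Near hatching the embryo turns to lung breathing and draws on liver glycogen, and after it the liver takes over the synthesis of fatty acids from a diet rich in carbohydrate. The 50 targets were drawn by the study from 4 pathways that serve these tasks. They include growth factors and transcription factors of liver development (HGF, GATA6, PROX1), glucose transporters and glycolytic enzymes (GLUT2, HK1, GAPDH), enzymes that make or oxidise fatty acids (FASN and SCD1, CPT1A), and chaperones and detoxifying enzymes (HSP90AA1, CYP2E1). The tables used here number the genes and do not pair the numbers with names, so each gene is called by its row, no row is given a role, the label of the tissue was not checked against liver markers and no count by pathway was made. Whole liver was sampled, so fewer cells of a type and less RNA per cell cannot be told apart.

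Relative to the 5 references together, most target genes were lower at E28 than at E24, although with row 51 or row 55 as the sole reference the median difference was 0.14 or -0.02. With all 5 the mean of log2 relative expression was lower at E28 in 38 of the 50 rows and higher in 12, with a median difference of -0.37 over the rows, or 1.29 times lower. The limma test called 25 rows, 50% of those tested. Of these 22 fell (44% of the rows tested) and 3 rose (6%), the genes in rows 21, 37 and 41. The falls lay between -0.35 and -1.85 with a median of -0.84, or 1.79 times lower, and 4 of them were larger than 1 on the log2 scale. The 95% interval lay wholly beyond a change of 0.5 in 8 rows. A permutation test of the same means called 26 rows, 25 of them shared with limma, and a permutation test of ranks called 24 rows, all 24 shared. In no row were the animals of both stages fully separated. Among all pairs of an E28 animal with an E24 animal, the E28 animal was the higher in 3.95% of pairs in the row most set apart downwards and in 96.5% in the row most set apart upwards.

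**Figure D1:**
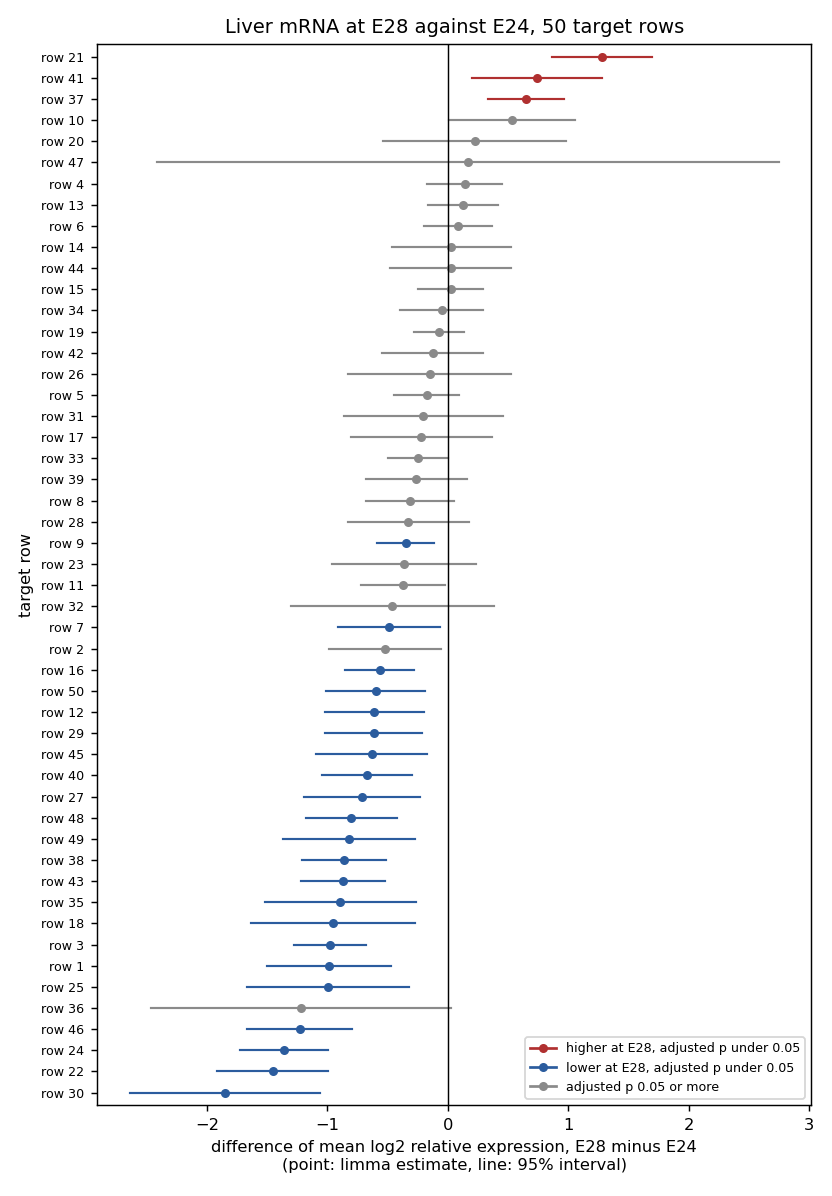
Difference of mean log2 relative expression, E28 minus E24 (x axis), for each of the 50 target rows (y axis, from the highest to the lowest), with the limma estimate as a point and its 95% interval as a line. The 22 rows that fell (blue) outnumber the 3 that rose (red), and the 25 grey rows did not pass the threshold.

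These calls rest on the references, and 6 rows were called in the same direction whichever of the 5 was used alone. Genes in rows 30, 22, 24, 46 and 3 fell under each reference, and the gene in row 21 rose. The sizes and SE given below are for all 5 references together. Under single references they ran from -1.36 to -2.54 in row 30, -0.96 to -2.14 in row 22 and -0.86 to -2.05 in row 24. The range was -0.74 to -1.96 in row 46, -0.48 to -1.67 in row 3 and 0.61 to 1.80 in row 21.

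The gene in row 30 had a relative expression of 0.00712 to 0.964 at E28, with a median of 0.380 over 20 animals, against 0.386 to 3.38 at E24, with a median of 1.21 over 19 animals. Of the E28 animals 10 lay below the lowest E24 animal and 0 above the highest. The fall of -1.85 ± 0.39 (SE), or 3.61 times, was the largest of all the called rows (limma, adjusted p = 0.000161). The lowest E28 animal, replicate 18, stood far from the others, at 0.00712 against 0.0843 in the next lowest animal of that stage. Without it the difference was -1.56, and the call stood without each animal in turn. The mean was 0.453 ± 0.282 at E28 and 1.36 ± 0.741 at E24 (SD).

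Values in row 22 were 0.0898 to 0.752 with a median of 0.421 in 20 E28 animals, against 0.438 to 2.22 with a median of 1.09 in 19 E24 animals. The stages overlapped, with 11 of the E28 animals below the whole E24 range. The difference was -1.45 ± 0.23 (SE), or 2.74 times lower at E28 (limma, adjusted p = 2.31e-06).

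Row 24 was the most clearly separated of the genes that fell. Its relative expression was 0.271 to 1.60 with a median of 0.645 in 20 E28 animals, against 1.01 to 2.48 with a median of 1.73 in 19 E24 animals. Only 4 of the E28 animals reached into the E24 range, since 16 lay below it. The fall was -1.36 ± 0.18 (SE), or 2.56 times, and carried the smallest adjusted p of the 50 rows (limma, 1.91e-07).

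In row 46 values were 0.160 to 1.37 with a median of 0.494 in 19 E28 animals, against 0.645 to 1.92 with a median of 1.16 in 19 E24 animals. Here 15 E28 animals lay below every E24 animal, and the remaining 4 lay well inside the E24 range. The difference was -1.23 ± 0.22 (SE), or 2.35 times lower (limma, adjusted p = 1.41e-05). Row 3 had values of 0.160 to 0.643 with a median of 0.323 in 20 E28 animals, against 0.434 to 0.972 with a median of 0.642 in 19 E24 animals. Again 15 E28 animals lay below the E24 range, and the difference of -0.98 ± 0.15 (SE) was 1.97 times lower at E28 (limma, adjusted p = 1.62e-06).

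Row 21 held the gene that rose under every reference. Its values were 0.234 to 1.40 with a median of 0.409 in 16 E28 animals, against 0.103 to 0.347 with a median of 0.199 in 18 E24 animals. At E28 12 animals lay above the whole E24 range and 0 below it. The difference was 1.28 ± 0.20 (SE), or 2.43 times higher at E28 (limma, adjusted p = 4.07e-06). This was also the row with 4 E28 animals whose Ct was deposited without a relative expression, against 1 E24 animal. With those values computed from the Ct the difference was 1.64 (limma, adjusted p = 5.11e-06).

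**Figure D2:**
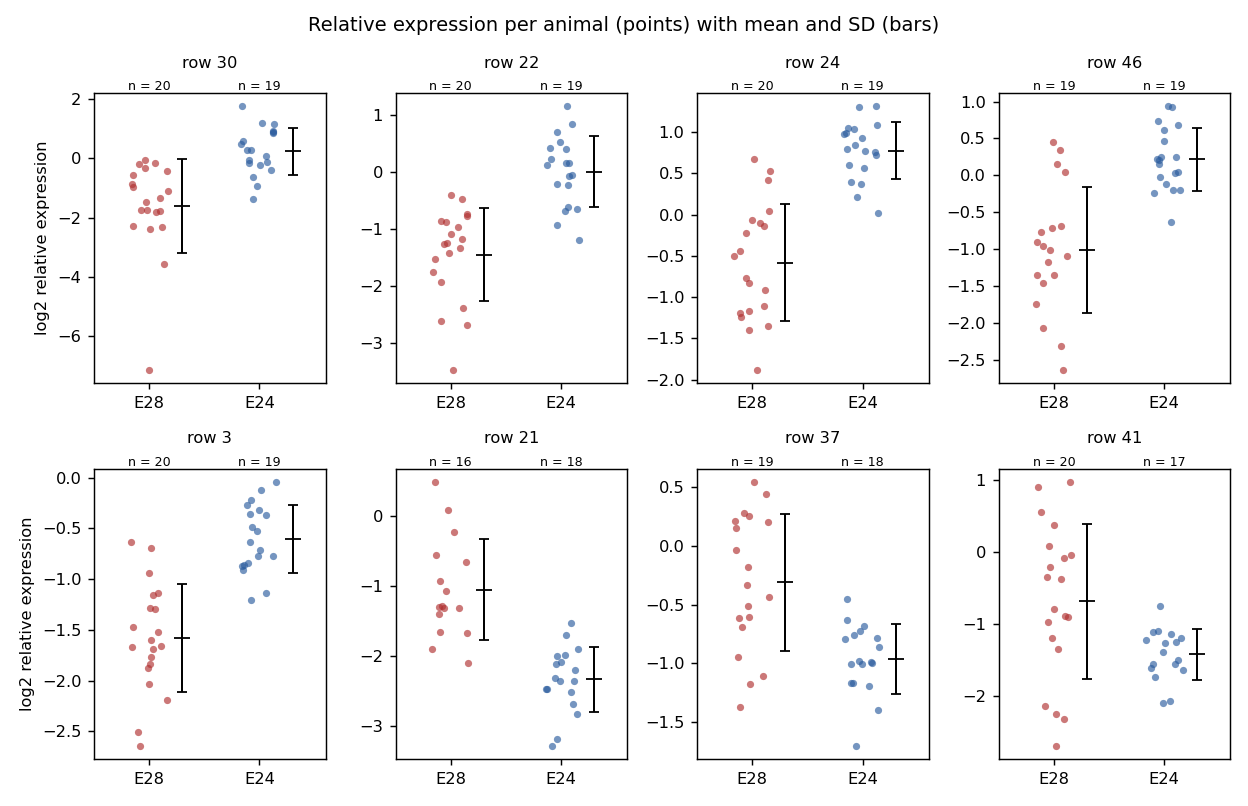
Log2 relative expression (y axis, with a scale of its own in each panel) of every animal with a value at E28 (red, left) and E24 (blue, right) for the 5 rows that fell and the 1 row that rose under each reference, and for rows 37 and 41, which also rose. Bars give the mean and SD, n is the number of animals, and in row 24 the stages are nearly apart, with 16 of 20 E28 animals below the lowest E24 animal.

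Rows 37 and 41 rose less and depended on the reference. Row 37 had values of 0.386 to 1.46 with a median of 0.795 in 19 E28 animals, against 0.308 to 0.729 with a median of 0.505 in 18 E24 animals. Of the E28 animals 11 lay above the E24 range and 0 below it, and the rise was 0.65 ± 0.16 (SE), or 1.57 times (limma, adjusted p = 0.000965), although with row 54 as the sole reference the difference turned to -0.10. Row 41 had values of 0.154 to 1.98 with a median of 0.675 in 20 E28 animals, against 0.233 to 0.593 with a median of 0.382 in 17 E24 animals. Its E28 animals spread past the E24 range at both ends, 10 above it and 4 below, and the rise was 0.74 ± 0.27 (SE), or 1.67 times (limma, adjusted p = 0.0180). It was called under 2 references alone, rows 51 and 55, and its direction held under the other 3. With the 2 E24 values that have a Ct and no relative expression put back, the difference in row 41 was 0.58 (limma, adjusted p = 0.0908).

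Of the remaining 17 rows that fell, the gene in row 25 had 0.148 to 1.24 with a median of 0.399 in 17 E28 animals, against 0.217 to 2.63 with a median of 0.842 in 18 E24 animals. The difference was -0.99 ± 0.33 (SE), with 4 E28 animals below the E24 range (limma, adjusted p = 0.0129). With the 3 E28 values and the 1 E24 value that have a Ct and no ratio put back, it was -0.75 (limma, adjusted p = 0.10). In row 1 the values were 0.148 to 1.26 with a median of 0.584 in 20 E28 animals, against 0.335 to 3.01 with a median of 1.18 in 19 E24 animals, a difference of -0.99 ± 0.25 (SE) with 5 E28 animals below the E24 range (limma, adjusted p = 0.00157). Rows 25 and 1 kept their direction under each reference and were called under 3 of the 5, rows 52, 53 and 54.

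Falls in rows 48, 27 and 16 were smaller and were called under those same 3 references. Row 48 had 0.435 to 2.16 with a median of 0.763 at E28, against 0.848 to 2.45 with a median of 1.55 at E24, in 20 E28 and 19 E24 animals. The difference was -0.80 ± 0.19 (SE), and 12 E28 animals lay below the E24 range (limma, adjusted p = 0.000669). In row 27, over as many animals, the values were 0.411 to 2.21 with a median of 1.43 at E28, against 0.511 to 4.12 with a median of 1.96 at E24, and the stages overlapped widely, with 2 E28 animals below the E24 range and a difference of -0.71 ± 0.24 (SE) (limma, adjusted p = 0.0129). In row 16 the values were 0.354 to 1.48 with a median of 0.774 at E28, against 0.725 to 1.46 with a median of 1.21 at E24. There 6 E28 animals lay below the E24 range and 1 above it, with a difference of -0.56 ± 0.14 (SE) (limma, adjusted p = 0.00131).

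Row 18 was read late, with a mean Ct of 22.3 at E28 and 20.5 at E24. Its values were 0.127 to 1.36 with a median of 0.643 in 17 E28 animals, against 0.232 to 2.34 with a median of 1.24 in 18 E24 animals, and it fell by 0.96 on the log2 scale (limma, adjusted p = 0.0162). The other 11 falls lay between -0.35 and -0.89. Among them the genes in rows 43 and 38 had 14 of the E28 animals each below the E24 range, with differences of -0.87 and -0.86. Rows 9 and 7 fell least, by 0.35 and 0.49, and their direction turned under 2 references and 1 reference. Row 7 was the least firm call of all (limma, adjusted p = 0.0498), since it was lost when any 1 of 21 animals was left out, with adjusted p-values up to 0.0878. The other 24 calls stood without each of the 39 animals in turn. With the left-out values put back the genes in rows 7, 35 and 49 were no longer called, beside rows 25 and 41 given above (limma, adjusted p = 0.0611 in row 7, 0.140 in row 35 and 0.0925 in row 49). Row 7 had no left-out value of its own and kept its difference, so its adjusted p moved only through the other rows.

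The remaining 25 rows were not called, with 16 differences below 0 and 9 above. The narrowest intervals among them were those of rows 19, 33 and 15. Row 19 had 0.432 to 0.911 with a median of 0.590 in 19 E28 animals, against 0.483 to 0.836 with a median of 0.609 in 17 E24 animals, and its difference of -0.07 had a 95% interval of -0.28 to 0.13. In row 15 the interval was -0.24 to 0.29 about a difference of 0.02, over 20 E28 animals and 16 E24 animals. The interval in row 33 was -0.50 to 0.00039 about -0.25, where 6 E28 animals lay below the E24 range. All 3 of these rows changed direction with the reference, and rows 19 and 15 were called higher at E28 with row 51 alone and lower with row 54 alone.

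Large differences also stood among the uncalled rows. Row 36 had a difference of -1.22 with an interval of -2.46 to 0.02 (limma, adjusted p = 0.0907). The permutation test of the same means did call this row (adjusted p = 0.0354). The value of row 36 in E28 replicate 18 was 0.000373, against 0.0797 in the next lowest animal of that stage. Without that animal the difference was -0.69 and was called (limma, adjusted p = 0.0391). Rows 2, 11 and 10, with differences of -0.52, -0.37 and 0.53, were also called without any 1 of 10, 6 and 3 animals. Row 47 had the fewest values. They were 0.000973 to 0.939 with a median of 0.268 in 10 E28 animals, against 0.00130 to 0.401 with a median of 0.207 in 12 E24 animals, since 9 E28 animals and 6 E24 animals had no Ct and 1 of each stage had a Ct without a ratio. Its interval of -2.41 to 2.75 about 0.17 leaves the direction undetermined. Row 32, with no Ct in 4 E28 animals and 0 E24 animals, had a difference of -0.46 with an interval of -1.30 to 0.38.

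The references themselves shifted between the stages. The Ct of all 5 was later at E28, where equal RNA was put into every reaction according to the methods. The largest shift was that of row 51, with 16.5 to 19.6 cycles and a median of 17.3 at E28, against 14.7 to 18.7 and a median of 15.9 at E24. It came to 1.38 cycles (2-sided permutation test with 100000 resamples, adjusted over the 5 references, p = 5e-05, n = 20 and 19). Row 55 shifted by 1.18 cycles (permutation test, adjusted p = 0.00173), row 53 by 0.885 (adjusted p = 0.00336) and row 52 by 0.780 (adjusted p = 0.00173). Row 54 shifted least, at 9.45 to 10.3 cycles with a median of 9.77 at E28, against 9.18 to 10.4 with a median of 9.67 at E24, a shift of 0.193 cycles (permutation test, adjusted p = 0.0406). The E24 animal replicate 15 had the latest Ct of its stage in the mean of the references, 17.4 cycles against 15.9 in the next. Without it the shifts were larger, at 0.221 to 1.53 cycles, with adjusted p-values up to 0.0186, and the rows called numbered 25 again. At E28 replicates 4 and 18 were about as late, at 17.3 cycles each against 16.9 in the next. The shifts were not recomputed without these E28 animals. For the targets, the mean Ct was later at E28 in 49 of the 50 rows, by a median of 1.27 cycles.

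**Figure D3:**
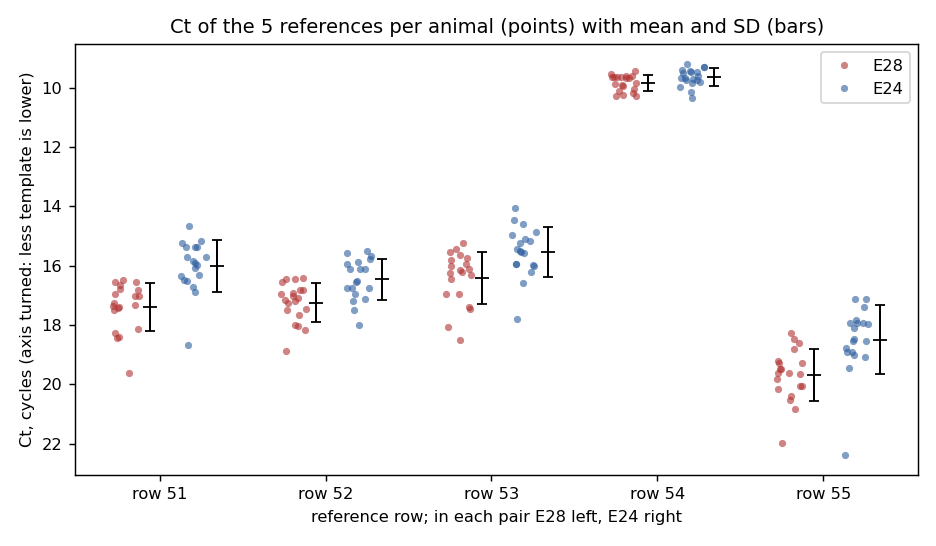
Ct in cycles (y axis, turned so that less template lies lower) of the 5 reference rows (x axis) in each of the 20 E28 animals (red) and 19 E24 animals (blue), with the mean and SD as bars. The shift is 1.38 cycles in row 51 and 0.193 cycles in row 54, and the lowest E24 points in rows 51, 52, 53 and 55 belong to replicate 15.

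Rows 51 to 55 are SDHA, GLUT8, PDHA1, POL2 and luciferase in an order that no source used here gives. SDHA and PDHA1 code for parts of mitochondrial enzymes, GLUT8 for a sugar transporter and POL2 for RNA polymerase, while luciferase is a foreign RNA that the authors added at reverse transcription. Among animals of 1 stage, the 4 references other than row 54 varied together, with pairwise Pearson correlations of Ct of 0.48 to 0.93 at E28 and 0.81 to 0.95 at E24. Row 54 against the mean of the other 4 gave r = 0.01 and rho = -0.08 at E28 over 20 animals (permutation p = 0.951 and 0.735, adjusted over the 2 stages 0.951 and 0.735). At E24 it gave r = 0.64 and rho = 0.66 over 19 animals (permutation p = 0.00367 and 0.00262, adjusted 0.00734 and 0.00524). Without the 2 animals farthest from the median r was 0.02 at E28 and 0.65 at E24, and the difference between the stages was not tested.

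The references shifted by unequal amounts, and the level of all differences moved with the reference. With row 54 alone the median difference over the 50 rows was -1.14 and 40 rows were called (80%), 1 higher and 39 lower. With row 52 alone it was -0.51 with 26 calls (52%), 2 higher and 24 lower, and with row 53 alone it was -0.37 with 21 calls (42%), 2 higher and 19 lower. With row 55 alone the median was -0.02 and 9 rows were called (18%), 4 higher and 5 lower. With row 51 alone it was 0.14, and of 15 calls (30%) 10 were higher and 5 lower. The lowest and highest of these medians lay 1.28 apart on the log2 scale, more than the difference of most rows. Of the 25 rows called with all 5 references, 22 kept their sign under every reference, 20 of them falls, and 6 kept their call.

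**Figure D4:**
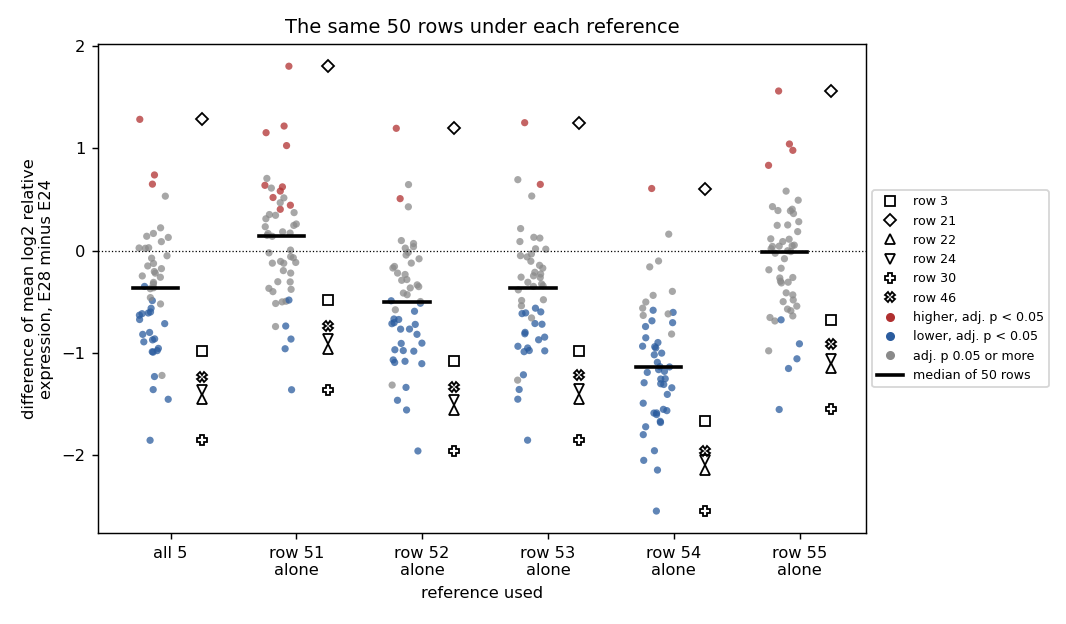
Difference of mean log2 relative expression, E28 minus E24 (y axis), of the 50 target rows with all 5 references and with each reference alone (x axis), coloured by direction and call, with the median of the rows as a black bar. The median lies between -1.14 (row 54) and 0.14 (row 51), while the 6 rows drawn as open symbols keep their side of 0 and their call throughout.

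A measure that needs no reference gene is the change of a row relative to the median of all target rows in the same animal. On that scale 17 rows were called, 9 higher and 8 lower. The 5 falls and the rise that held under each reference were called here too, at -1.45 in row 30, -1.05 in row 22, -0.95 in row 24, -0.77 in row 46, -0.57 in row 3 and 1.65 in row 21 (limma, adjusted p up to 0.00215). Each of these differences lay between those with row 54 alone and row 51 alone. Since the rows were chosen for holding under both, their direction here was fixed by that choice and is no separate test. The rises of rows 37 and 41 were 1.02 and 1.07 relative to the other targets (limma, adjusted p up to 0.000135). With all 5 references they were 0.65 and 0.74. The scale moved falls and rises alike upwards, so the direction of these 2 rows is no separate test either. The falls of rows 25, 48, 27, 16 and 18 were not called on this scale, with differences between -0.53 and -0.16 (limma, adjusted p from 0.0706 to 0.348), and that of row 1 was (-0.58, adjusted p = 0.0430). This scale was added after the data were seen.

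Spread among animals was larger at E28 in most rows and passed a test in few. Over the kept values, the SD of log2 relative expression was larger at E28 in 45 of the 50 rows, with a median of 0.79 at E28 and 0.46 at E24. The median coefficient of variation was 50.8% at E28 and 31.5% at E24. The rows share animals and references, so they are not separate observations, and no SD with the left-out values put back is given here. Row by row the wider spread passed a permutation test of the mean absolute deviation from the stage median in 5 rows (10%), those of rows 6, 15, 24, 37 and 41, and a narrower spread in 0. At an unadjusted p under 0.05 there were 15 rows, and the Brown-Forsythe test called 4. Among these 5, row 41 widened most, with a log2 SD of 1.08 at E28 and 0.35 at E24 (permutation test, adjusted p = 0.0215). It was 0.71 at E28 and 0.35 at E24 in row 24, and 0.58 at E28 and 0.30 at E24 in row 37. In row 15 it was 0.46 at E28 and 0.18 at E24, and in row 6 it was 0.52 at E28 and 0.26 at E24. Rows 6 and 15 thus passed this test without a called change of the mean, at 0.09 and 0.02, row 6 narrowly (permutation test, adjusted p = 0.0498). As a set these calls depended on the values left out by the authors, since 0 rows were called once those with a Ct were put back. Rows 15, 37 and 41 had such values, with 3 at E24 and 0 at E28 in row 15, 1 and 1 in row 37, and 2 and 0 in row 41. Rows 6 and 24 had none, so their own values stayed the same and only the adjustment over the 50 rows changed.

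The median over the 50 rows in an animal ran from -1.26 to 0.16 on the log2 scale at E28, with a median of -0.88, against -0.81 to 0.37 at E24, with a median of -0.30. In 11 of the 20 E28 animals it lay below every E24 animal, and in 2 E24 animals it lay above every E28 animal. These medians are relative to all 5 references, and their level moves with the reference. With row 51 or row 55 alone the median difference over the rows was 0.14 or -0.02, and the animal medians were not recomputed there. The lowest values of E28 were held in 12 rows by replicate 10 and in 11 rows by replicate 18, and the highest in 15 rows by replicate 8 and in 11 rows by replicate 6. At E24 replicate 19 held the lowest value in 13 rows and replicate 1 the highest in 13. Leaving out replicate 6 at E28 and replicate 1 at E24, the animals farthest from their stage median, gave 24 calls.

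Values were missing in 2 ways. At E28 950 of 1000 possible values (95.0%) had a relative expression, against 909 of 950 (95.7%) at E24. A Ct was missing in 20 values of 7 rows and 11 animals at E28, against 6 values of 1 row, row 47, and 6 animals at E24. Per animal this was 1.00 ± 1.21 rows at E28 and 0.316 ± 0.478 at E24 (SD, 2-sided permutation test, p = 0.0301). Without row 47 it was 0.550 ± 0.887 at E28 and 0 at E24 (permutation test, p = 0.00817). That 0 was fixed by leaving out the only row with such values at E24, so the smaller p is no added support. Of the values without a Ct at E28, 4 lay in replicate 18 and 3 each in replicates 2 and 4. The 7 rows were 18, 31, 32, 35, 44, 47 and 49, whose mean Ct lay between 20.4 and 25.4 at E28. A Ct without a relative expression was found in 30 values at E28 and 35 at E24, or 1.5 ± 2.52 per animal at E28 and 1.84 ± 3.5 at E24 (SD, permutation test, p = 0.761). When computed from the Ct, all 30 at E28 and 34 of the 35 at E24 exceeded the kept values of their row and stage, and 1 at E24 lay below them. They gathered in few animals, with 10 in replicate 6 and 6 in replicate 8 at E28, against 12 in replicate 1, 9 in replicate 10 and 7 in replicate 15 at E24.

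The procedure in the study's methods works on linear values. It uses ANOVA with Bonferroni comparisons where the data are normal by the Shapiro-Wilk test and Kruskal-Wallis with Dunn comparisons otherwise. In the rerun each of the 7 stages had to pass that test, and each row was corrected over the 21 pairs of stages. The methods do not spell out these settings. They led to ANOVA in 19 rows and Kruskal-Wallis in 31. Rerun in this way, the procedure called E28 against E24 in 7 rows (14%), all of them among those that limma called. They were the falls of rows 30, 22, 24, 48, 27 and 16 and the rise of row 21. The adjusted p was 2.69e-05 in row 22, 0.000327 in row 27, 0.000997 in row 30, 0.00226 in row 16, 0.00379 in row 21, 0.00842 in row 24 and 0.0244 in row 48. It gave 1.00 in row 46 and 0.266 in row 3, 2 rows that limma called under every reference.

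The step to E28 was then set beside its neighbours. Where all 7 stages were fitted together, the test of the difference between the step to E28 and the step to E24 passed in 16 rows (32%), 12 towards a smaller fall or a rise and 4 towards a larger fall. The 4 were rows 30, 22, 24 and 38. In row 30 the change was -1.85 to E28, against 0.27 to E24 (limma, adjusted p of the difference = 0.000147). It was -1.45 to E28 against -0.72 to E24 in row 22 (adjusted p = 0.0429), -1.36 against -0.64 in row 24 (adjusted p = 0.0261) and -0.86 against -0.13 in row 38 (adjusted p = 0.0312). With only the 3 stages of the comparison fitted, 12 rows passed, 11 upwards and 1 downwards, and rows 22, 24 and 38 did not (limma, adjusted p = 0.147, 0.0676 and 0.0563). Row 30 passed there and with each single reference, whereas rows 22 and 24 passed only with row 55 alone and row 38 only with row 52 or row 55 alone. These tests of row 30 included E28 replicate 18, without which its step to E28 was -1.56, and were not rerun without that animal. For the 3 genes that rose to E28, the step to E24 was -2.32 in row 41, -1.01 in row 37 and -0.79 in row 21, and the difference between the steps was 3.06, 1.66 and 2.07 in these rows (limma, adjusted p up to 3.65e-11). The rise to E28 by which these 3 were chosen is part of that difference, so its direction is no separate test. In row 3 the fall to E28 was smaller than the fall of -1.63 before it (limma, adjusted p = 0.0173), a call that was lost with row 53, 54 or 55 as the only reference.

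The step across hatching, to day 1 (D1), differed from the step to E28 in 31 rows (62%), 19 upwards and 12 downwards, a split that depended on the reference. In row 21 the step to D1 was 3.69, and in row 37 it was 0.86, where the difference from its step to E28 did not pass (limma, adjusted p = 0.367). With a single reference the difference in row 37 passed downwards with row 51 (-0.56, limma, adjusted p = 0.0327). With row 54 it passed upwards (1.14, limma, adjusted p = 0.00196). In row 41 the step to D1 was -1.62 (limma, adjusted p of the difference = 3.68e-08), so its mean at E28 stood above those of the stages before and after it. Rows 24 and 46 changed by -1.52 and -1.89 to D1, and in neither did the difference from the step to E28 pass (limma, adjusted p = 0.608 and 0.132). In row 24 the difference did pass with row 51 as the only reference (-0.93, limma, adjusted p = 0.00335). In row 30 the step to D1 was -0.14 and in row 3 it was -0.13, smaller than the steps to E28 (limma, adjusted p = 0.00154 and 0.000692), though in row 3 this did not pass with row 51 or row 53 as the only reference. The E28 mean of row 30 includes the far lower replicate 18, which makes its step to D1 smaller. The test was not rerun without that animal. Among the 22 genes that fell, the lowest mean of the 7 stages was at E28 in 4, the genes in rows 9, 29, 40 and 43, on D1 in 15 and on D4 in 3, against 13, 24 and 6 of all 50 rows. The highest mean stood at E28 in 1 of the 50 rows, row 14, at 1.09 on the log2 scale, against 1.06 at E24. These steps share animals, so the values are given side by side and no count of shared directions was drawn from them.

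**Figure D5:**
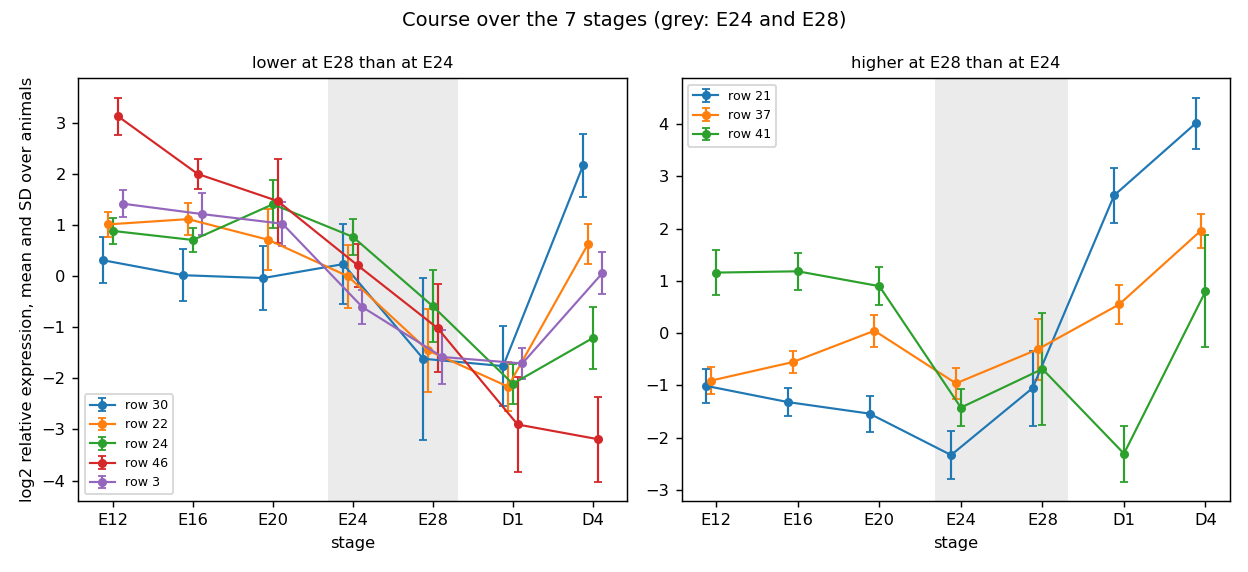
Mean log2 relative expression (y axis) with SD over animals (bars) at the 7 stages (x axis), for the 5 genes that fell under each reference (left) and the 3 genes that rose (right), with E24 and E28 shaded. Rows 30, 22, 24, 46 and 3 lie lower at E28 than at E24, and row 21 has its lowest mean at E24 and its highest on D4.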

How the data were processed

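The authors extracted liver RNA, pre-amplified the cDNA and read it with EvaGreen on Dynamic Array circuits of the Biomark system, using the Fluidigm software (v.4.1.3), and removed Ct values with aberrant melting curves. The deposited Ct is in cycles, before normalization. The deposited relative expression is a ratio that the authors computed with an efficiency of 2, as 2 to the power of the mean Ct minus the Ct, over the geometric mean of the same for 5 references. Recomputed from the Ct it deviated by at most 0.0028 on the log2 scale. No source used here names the array on which an animal was run, and arrays were not compared. There is no read depth, and the number of animals limits the precision. No pair of animals had identical values (0 pairs).

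Stages came from the labels, and 0 columns were left without a sample. Log2 ratios of E28 and E24 animals were fitted with limma (3.58.1, R 4.3.3) without covariates, with Benjamini-Hochberg adjustment over 50 rows. Steps between stages were contrasts in a fit of all 7 stages. References, spread and missing values were tested by 2-sided permutation with 100000 resamples in Python (3.11.15, numpy 2.4.6, pandas 2.3.3, scipy 1.17.1), and figures drawn with matplotlib (3.10.9). No value was imputed or floored in the main fit. In an alternative setting, values without a Ct were placed at the latest Ct of their row. That gave 26 calls, 3 higher and 23 lower, and a median difference of -0.51. On simulated data of 1000 rows, 200 of them shifted by 1, limma called 76.5% of the shifted rows and 1.12% of the others. The spread test called 30% of 50 rows with a doubled SD and 0% of the others. Simulated rows were drawn independently, without references shared between them, so these shares do not cover a shift of the references. The rows given in full were the 6 largest called differences in each direction (3 upwards), rows called under each reference, rows called by the study's procedure, the 3 rows with most missing Ct at E28 (rows 18 and 31 tied at 2 for the third place, and row 18, the lower number, was taken) and the 3 uncalled rows with the narrowest intervals, and any other row was named after its values were seen. The comparison, the rows and the tests were chosen with earlier results of these data known.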

Additional observations from a re-analysis of the deposited data

Results flagged for a closer look

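Between neighbouring steps, the step to E28 differed from the step to E24 in 16 of the 50 genes, 12 of them in the upward and 4 in the downward direction, by the test of the difference itself. The count was 12, of which 11 upwards and 1 downwards, with only the 3 stages of the comparison fitted, 8 with row 53 as the only reference, and 5 upwards and 6 downwards with row 55 as the only reference. The gene in row 41 had the largest such difference, 3.06 on the log2 scale, with steps of -2.32 to E24 and 0.74 to E28. The test was not rerun with the 2 left-out E24 values of that row put back.

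The step to D1 differed from the step to E28 in 31 of the 50 genes, 19 upwards and 12 downwards, by the same test, a split that ran from 8 upwards and 25 downwards with row 51 as the only reference to 22 and 2 with row 54. The genes in rows 17 and 29 had differences of 3.81 and 3.02, with steps of 3.59 and 2.41 to D1, against -0.22 and -0.62 to E28, and were singled out after their values were seen.

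A Ct without a relative expression, data that the comparison of the stages does not use, was found in 65 values, 30 at E28 and 35 at E24. All but 1 of them exceeded the kept values of their row and stage. With these values put back 20 genes were called, 2 higher and 18 lower.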

How the results depend on the processing

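The count of 25 called genes, 3 higher and 22 lower, moved by over 1.5 times with row 51 alone (15, of which 10 higher and 5 lower), row 54 alone (40), row 55 alone (9, of which 4 higher and 5 lower), row 54 left out of the references (16, of which 4 higher and 12 lower), no reference (44) and the study's procedure (7). With no reference 0 genes were called higher and 44 lower, so none of the 3 rises was called there. With each animal's median as the reference the count was 17, of which 9 higher and 8 lower. Under the other settings it was 20 to 29. The median difference of -0.37 was 0.14 with row 51 alone, -1.14 with row 54 alone, -0.018 with row 55 alone and -1.35 with no reference. Leaving out 1 animal at a time gave 24 to 27 calls and a median of -0.42 to -0.33. The 5 genes with a wider spread became 0 with the left-out values put back.

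Animals with the same replicate number showed little shared deviation, since the 19 shared numbers had a mean correlation of deviations of -0.03, over 0.1 in 7. A low correlation does not show that the numbers carry no pairing. They come from the sample titles, and no source used here pairs embryos of different stages by them. For some numbers the animal code of the sample differs between the stages, so the block below may join unrelated embryos. With the replicate block 20 genes were called, 3 higher and 17 lower, row 18 was not, and the shift of the reference in row 54 was 0.17 cycles and no longer passed (limma, adjusted p = 0.184). With row 53 alone the step to E28 differed from that to E24 in 8 genes in place of 16, and with row 55 alone in 11, of which 5 upwards and 6 downwards. For the step to D1 the split of upward and downward genes was 8 and 25 with row 51, 21 and 6 with row 52, 10 and 17 with row 53, 22 and 2 with row 54, and 12 and 10 with row 55.

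Directions turned in 5 of the 19 genes given in full. Row 15 was -0.044 with row 52, -0.062 with row 53 and -0.58 with row 54, and without 1 animal at a time it was -0.012 to 0.084. Row 19 was 0.40 with row 51 and 0.19 with row 55, and row 33 was 0.25 and 0.053. Row 37 was -0.10 and row 47 -0.44 with row 54, and row 47 was -0.40 to 0.92 without 1 animal at a time. The cause of these shifts was not tested.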
